A study of Mus musculus with 3 samples.

Results

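Collagens and laminins are the main structural proteins of the extracellular matrix, and integrins are the receptors with which cells hold on to it. Collagens are trimers of alpha chains wound into a triple helix. Fibrillar collagens form the fibers of connective tissue, and type IV collagen forms a sheet-like network in basement membranes. Laminins are trimers of an alpha, a beta and a gamma chain that assemble under epithelia, and the beta and gamma chains join before the alpha chain does. Integrins are pairs of an alpha and a beta subunit that link these ligands to the actin cytoskeleton. In the embryonic head a basement membrane lies under the neuroepithelium and the surface ectoderm, and the cranial mesenchyme beneath them fills its spaces with matrix. The genes described here were chosen by symbol: numbered collagen alpha chains, laminin alpha, beta and gamma chains, and the numbered integrin alpha and beta subunits together with *Itgav*. The rule found 75 of the 24062 symbols in the count tables, comprising 44 collagens, 11 laminins and 20 integrins.

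The data are RNA-Seq counts from the rostrum (anterior head) of mouse embryos at embryonic day 9 (18 to 22 somites). The *tuft* embryos were homozygous for the *tuft* allele, a spontaneous nonsense mutation in *Tet1* that is carried in every cell, had neural tube closure defects and were compared with wild-type embryos of the 3H1 Balb background strain. Each genotype has 1 column of counts, from RNA pooled from 3 embryos, so no value has a replicate error and no statistical test was possible. There are 2 *tuft* entries among the samples, and whether the *tuft* column holds 1 of them or both added together is not known.

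Gene counts came to 6433067 for *tuft* and 14251942 for wild type. The 75 genes held 0.539% of them in *tuft* and 0.417% in wild type. *Tet1* had 32 *tuft* and 435 wild-type counts. In the text, counts are raw, CPM are counts per 1000000 counts on genes, and fold changes are *tuft* over wild type after trimmed mean of M-values (TMM) normalization. Bounds in parentheses are exact (Clopper-Pearson) 95% limits. These limits describe counting error of reads alone. The methods name no molecular identifiers, so copies of 1 molecule count as separate reads and the limits can be too narrow. Where *tuft* had no count, "at least" gives the fold with 3 counts in place of 0, and the lower 95% limit, which lies nearer to 1, follows it. A gene was called higher or lower where it differed by at least 2-fold, had at least 30 counts in the 2 libraries together and had limits that did not include a fold change of 1. A call describes these libraries. The 12478 genes with 30 counts are the genes tested against this rule. By it 23.1% were called higher in *tuft* and 37.2% lower, and counts of members are to be read against these shares. In a bulk sample, fewer cells of a type and less RNA per cell cannot be told apart.

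Type IV collagen genes lie head to head, and their start regions show how close the members of a pair are. The sequences are promoter windows of 300 bases around an annotated start, most of each lying before it, from RefSeq (GRCm38.p6, the assembly that mm10 names). In the windows of *Col4a1* (minus strand, chr8:11312777-11313076) and *Col4a2* (plus strand, chr8:11312555-11312854), the starts lie 21 bases from each other. The annotated extent of *Col4a1* runs past the start of its window, to position 11312889. By their extents the 2 genes overlap by 85 bases. *Col4a6* (minus strand, chrX:141474027-141474326) and *Col4a5* (plus strand, chrX:141475169-141475468) start 1343 bases from each other. Each window is given 5′ to 3′ on the strand of its gene. Capitals mark the CCAAT box (CCAAT, or ATTGG on the other strand) and the GC box (GGGCGG or CCGCCC). They are shown because the genes of each pair differed in direction between the libraries, as described next.

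Col4a1: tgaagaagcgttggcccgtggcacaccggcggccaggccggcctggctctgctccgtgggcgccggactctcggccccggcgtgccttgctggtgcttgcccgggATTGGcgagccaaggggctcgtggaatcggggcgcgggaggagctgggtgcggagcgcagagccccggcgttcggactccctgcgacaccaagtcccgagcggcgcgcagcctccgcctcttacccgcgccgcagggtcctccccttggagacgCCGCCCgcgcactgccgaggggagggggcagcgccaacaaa

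Col4a2: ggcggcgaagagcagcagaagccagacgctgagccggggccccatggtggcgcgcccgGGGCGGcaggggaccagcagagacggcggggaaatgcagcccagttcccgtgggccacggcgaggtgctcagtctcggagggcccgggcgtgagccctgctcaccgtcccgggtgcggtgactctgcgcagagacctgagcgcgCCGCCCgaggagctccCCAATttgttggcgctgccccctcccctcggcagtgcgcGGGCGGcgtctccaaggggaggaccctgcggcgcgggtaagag

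Col4a5: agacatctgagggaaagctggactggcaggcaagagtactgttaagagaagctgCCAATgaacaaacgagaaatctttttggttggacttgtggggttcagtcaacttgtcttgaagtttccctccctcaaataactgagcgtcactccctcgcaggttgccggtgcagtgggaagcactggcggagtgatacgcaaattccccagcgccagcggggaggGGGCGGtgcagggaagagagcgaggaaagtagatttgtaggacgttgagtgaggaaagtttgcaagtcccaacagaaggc

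Col4a6: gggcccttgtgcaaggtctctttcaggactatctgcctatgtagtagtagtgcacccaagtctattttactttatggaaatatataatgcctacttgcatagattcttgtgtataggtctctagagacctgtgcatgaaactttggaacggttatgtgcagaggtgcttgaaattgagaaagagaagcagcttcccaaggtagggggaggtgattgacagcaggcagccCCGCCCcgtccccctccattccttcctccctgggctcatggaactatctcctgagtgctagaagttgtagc

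The *Col4a1* window holds 37 CpG dinucleotides and the *Col4a2* window 33, against 11 for *Col4a5* and 3 for *Col4a6*. A CCAAT box stands in the windows of *Col4a1*, *Col4a2* and *Col4a5* and in 37.4% of the 32851 promoter windows of the reference, and a GC box in all 4 windows shown, in 35.7% of the reference and in 64.2% of the windows of the genes tested here. None of the 4 holds TATAAA, which 13.6% of the reference windows hold on either strand. A match of letters is a description of the window and not a binding site.

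The chains of type IV collagen differed in direction within each pair. *Col4a1* was counted 6285 times in *tuft* against 5880 in wild type (fold change 3.11, limits 3.00 to 3.23). *Col4a2*, its partner in the trimer that most basement membranes contain, had 1043 and 4695 (fold change 0.647, limits 0.604 to 0.692). *Col4a1* was thus higher in *tuft* and called, whereas *Col4a2* was lower and short of 2-fold. With library totals alone as the scale, *Col4a2* was past 2-fold as well (log2 fold change -1.02). Per kilobase of exon, *Col4a1* had 1.22 times (1.17 to 1.26) the counts of *Col4a2* in wild type and 5.85 times (5.48 to 6.25) in *tuft*.

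*Col4a5* and *Col4a6*, whose chains form another type IV network, differed more. *Col4a5* had 3759 *tuft* and 492 wild-type counts and was 22.2-fold higher (20.2 to 24.5). *Col4a6* had 36 and 548 (fold change 0.191, limits 0.133 to 0.268). The pair stood at a ratio of 1.07 (0.945 to 1.21) per kilobase of exon in wild type and 124 (89.7 to 178) in *tuft*. This ratio is taken inside a library and does not depend on the normalization. *Col4a3* and *Col4a4*, the remaining chains, had 0 and 6 counts in *tuft* and 1 and 0 in wild type.

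**Figure D1:**
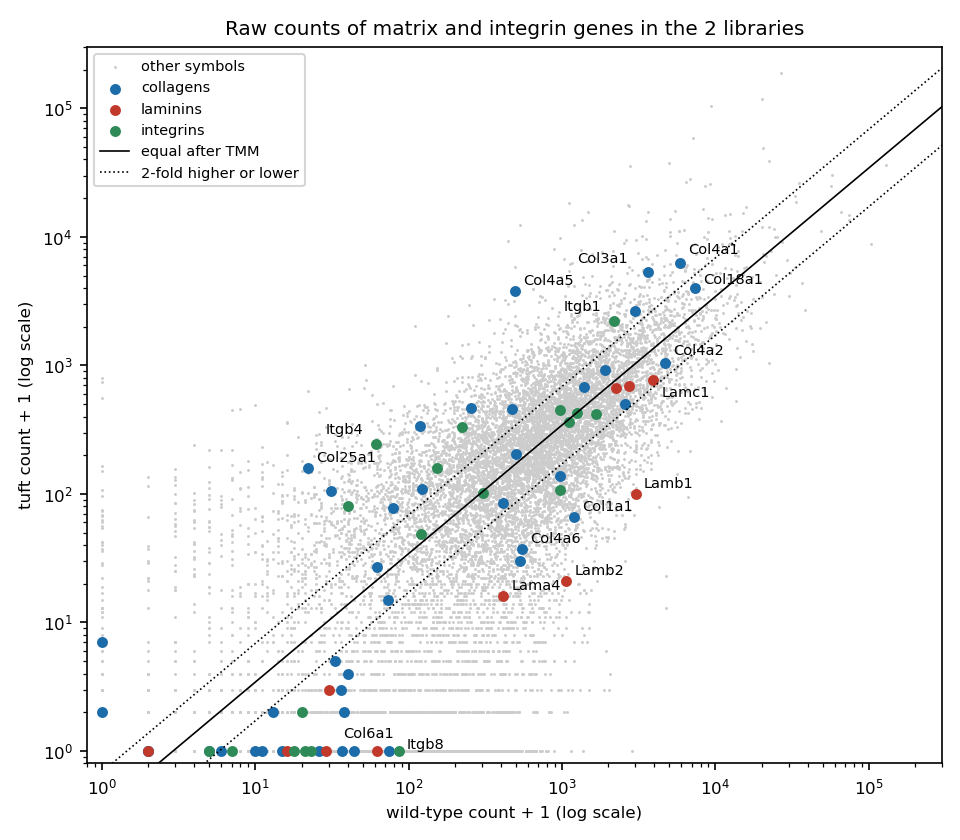
Raw counts of each gene in the wild-type library (x axis) and the *tuft* library (y axis), with 1 added and on log scales; gray points are all other genes with a count, and colored points are collagens, laminins and integrins. The solid line marks equal normalized levels and the dotted lines 2-fold differences; *Col4a5* lies far above the lines and *Lamb1* and *Lamb2* far below them.

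Among the fibrillar collagens, *Col3a1* and *Col2a1* were higher in *tuft* and *Col1a1* was lower. *Col3a1*, a collagen of loose connective tissue, had 5345 *tuft* and 3632 wild-type counts (fold change 4.29, limits 4.11 to 4.47). *Col2a1*, known best from cartilage and notochord and also expressed in the early neuroepithelium, had 2635 and 2981 (fold change 2.57, limits 2.44 to 2.71). With library totals alone *Col2a1* fell just short of 2-fold (log2 fold change 0.97). *Col1a1* and *Col1a2* encode the chains of type I collagen, the main collagen of bone and skin. *Col1a1* had 65 *tuft* and 1193 wild-type counts and was 6.30 times lower (4.91 to 8.22). *Col1a2* had 502 and 2582 (fold change 0.566, limits 0.514 to 0.623), which is under the 2-fold limit on the TMM scale and past it with library totals alone (log2 fold change -1.22). Both chains of type I collagen therefore had the same direction, but the ratio of *Col1a1* to *Col1a2* per kilobase of exon was 0.855 (0.798 to 0.916) in wild type and 0.240 (0.182 to 0.311) in *tuft*.

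The chains of type V collagen, which nucleates collagen fibrils, kept their ratio. *Col5a1* was counted 680 times in *tuft* against 1380 in wild type (fold change 1.43, limits 1.31 to 1.57). *Col5a2* had 918 and 1904 (fold change 1.40, limits 1.30 to 1.52). The ratio of *Col5a1* to *Col5a2* was 0.837 (0.757 to 0.925) in *tuft* and 0.819 (0.763 to 0.878) in wild type. *Col11a1*, with 204 and 502 counts, had a fold change of 1.18 (1.00 to 1.40), and its direction turned with library totals alone. *Col27a1* had 84 and 410 counts and a fold change of 0.597 (0.466 to 0.756), and was called lower with library totals alone (log2 fold change -1.14). *Col11a2*, with 14 and 72 counts, was not called on the TMM scale and was called lower with library totals alone (log2 fold change -1.21). *Col24a1* had 43 wild-type counts but none in *tuft* (at least 4.92-fold lower, limit 3.83). Of the 10 fibrillar genes tested, 2 were called higher and 2 lower.

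The fibril-associated collagens of type IX, which decorate type II fibrils, were unequal. *Col9a1* had 461 *tuft* and 254 wild-type counts (fold change 5.29, limits 4.52 to 6.18), and *Col9a3* had 105 and 30, a fold change of 10.2 (6.74 to 15.8). The third chain, *Col9a2*, had 4 and 32 (fold change 0.364, limits 0.0935 to 1.03), which is not called on the TMM scale but is called lower with library totals alone (log2 fold change -1.85) and with the upper quartile as the scale (-1.51). *Col9a3* overlaps *Tcfl5*, itself called higher (279 and 284 counts), and whether reads were counted by strand is not given in the sources used here, so the genes could share reads. *Col22a1*, a collagen of tissue junctions, had 339 and 117 (fold change 8.44, limits 6.82 to 10.5). *Col12a1* had 36 wild-type counts but none in *tuft* (at least 4.12-fold lower, limit 3.18), *Col16a1* had 3 and 39, and *Col14a1*, with 26 and 61, was not called. Of the 7 tested genes of this group, 3 were called higher and 2 lower.

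Type VI collagen forms beaded microfibrils from *Col6a1*, *Col6a2* and *Col6a3*. *Col6a2* was counted 76 times in *tuft* against 78 in wild type (fold change 2.84, limits 2.04 to 3.94). *Col6a1* had none and 73, at least 8.36-fold lower (limit 6.63), and *Col6a3* had 1 and 37, 12.7 times lower (2.14 to 515). Of the 3 tested chains, *Col6a2* was thus called higher and the others lower, at or near 0 in *tuft*.

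The remaining collagens again went both ways. *Col18a1*, which carries heparan sulfate chains in basement membranes and holds endostatin at its end, had the highest level of all collagens in wild type, with 7362 counts, and 4008 in *tuft*. Its fold change was 1.59 (1.53 to 1.65). *Col15a1*, the other multiplexin, known from vessels and muscle, had 29 *tuft* and 529 wild-type counts and was 6.26 times lower (4.31 to 9.45). Of the collagens that span the membrane, *Col25a1*, found in neurons, had 158 and 21 counts, 21.9-fold higher (13.8 to 36.4). *Col23a1* had 137 and 969, 2.43 times lower (2.03 to 2.93). *Col13a1* had 2 and 35. *Col26a1* (459 and 473 counts) was 2.83-fold higher (2.48 to 3.22), and *Col7a1* (108 and 122 counts), which forms the anchoring fibrils of skin, 2.58-fold (1.97 to 3.37). *Col7a1* fell short of 2-fold with library totals alone (log2 fold change 0.97).

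Across the collagens, 11 of the 31 tested were called higher and 10 lower, or 35.5% and 32.3%, against 23.1% and 37.2% of all genes. With library totals alone 9 collagens were higher and 15 lower. Their median log2 fold change was 0.24, against -0.31 for all genes tested, and it turned to -0.15 with library totals alone. Summed over all 44 genes, collagen counts reached 4274 CPM (*tuft*) and 2572 CPM (wild type), 2.18-fold more on the TMM scale and 1.66-fold on library totals. The highest levels per kilobase of exon in *tuft* were those of *Col4a1* (143 CPM per kilobase), *Col3a1* (99.0) and *Col18a1* (88.7), followed closely by *Col4a5* (87.0). In wild type they were *Col18a1* (73.6), *Col4a1* (60.5) and *Col4a2* (49.8), and *Col4a5* stood at 5.14.

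**Figure D2:**
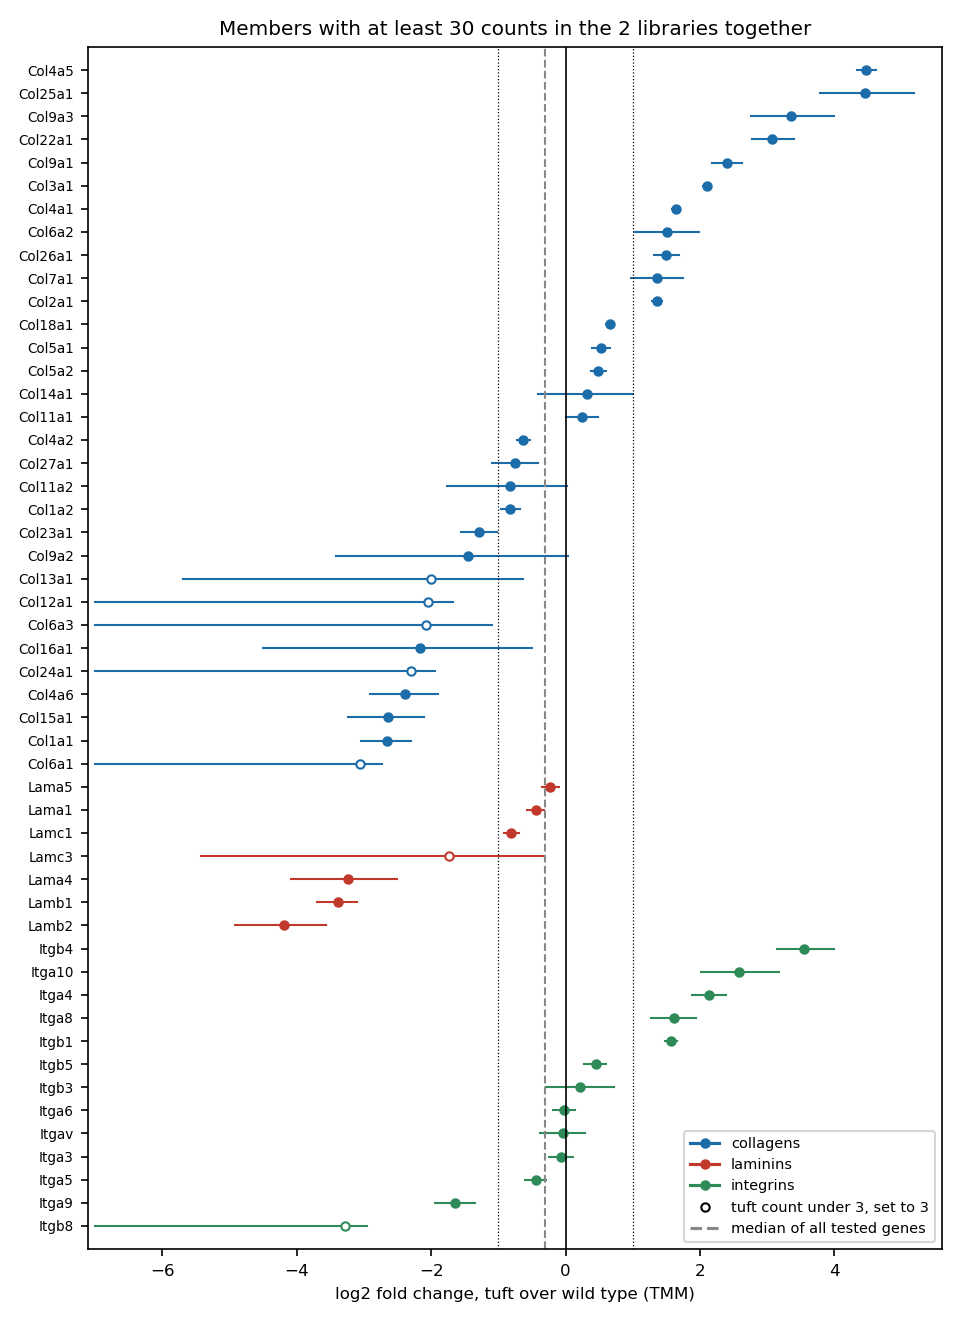
Log2 fold change (TMM scale, x axis) of 51 members with at least 30 counts in the 2 libraries together, by family; lines are 95% limits for counting error, which run to the left edge where the lower limit is 0 or beyond the axis, open circles mark *tuft* counts under 3, and the dashed line is the median of all tested genes. Collagens and integrins spread to both sides, and all 7 laminins drawn lie to the left of 0.

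No laminin gene was called higher, and 5 of the 8 tested (62.5%) were called lower, against 23.1% and 37.2% of all genes tested. With a minimum of 100 counts, 3 laminins were called lower. The beta chains stood out. *Lamb1*, the beta chain of most embryonic laminins, had 99 *tuft* and 3021 wild-type counts and was 10.5 times lower (8.58 to 12.9). *Lamb2* had 20 and 1067, 18.3 times lower (11.8 to 30.1). The third beta chain, *Lamb3*, a part of the laminin of skin, had 0 and 15 counts. *Lamc1*, *Lama1* and *Lama5*, with which *Lamb1* forms trimers, were within 2-fold. *Lamc1*, the common gamma chain, had 769 and 3913 (fold change 0.572, limits 0.529 to 0.618). *Lama1*, the alpha chain of the earliest basement membranes, had 694 and 2749, a fold change of 0.735 (0.675 to 0.799), and *Lama5* had 662 and 2252, 0.856 (0.784 to 0.934). *Lamc1* was called lower with library totals alone (log2 fold change -1.20), and *Lama1* and *Lama5* were not.

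Set against *Lamc1* in the same library, *Lamb1* stood at 0.644 (0.614 to 0.675) in wild type and 0.107 (0.0862 to 0.133) in *tuft*. *Lama1* stood at 0.611 in wild type and 0.784 in *tuft*, and *Lama5* at 0.417 and 0.624. Relative to *Lamc1*, *Lama1* and *Lama5* thus stood higher in *tuft* and *Lamb1* lower. *Lama4*, the alpha chain of vessel laminin, had 15 *tuft* and 413 wild-type counts and was 9.46 times lower (5.67 to 17.0). *Lamc3*, another gamma chain, had 2 *tuft* and 29 wild-type counts. The summed laminin counts were 351 CPM (*tuft*) and 951 CPM (wild type), a fold change of 0.486. The median log2 fold change was -2.27, and -0.31 for all genes tested.

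**Figure D3:**
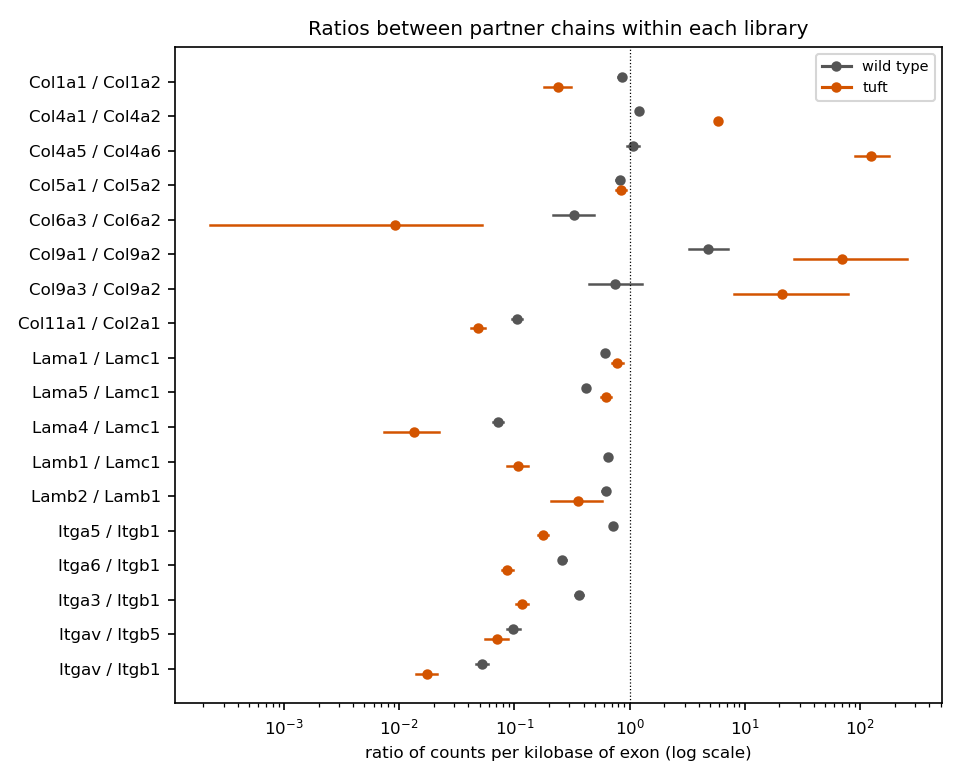
Ratio of counts per kilobase of exon between partner chains in the wild-type library (gray) and the *tuft* library (orange), on a log scale, with 95% limits for counting error. The ratios of *Col5a1* to *Col5a2* lie together at 0.819 and 0.837, whereas those of *Col4a5* to *Col4a6* (1.07 and 124) and *Lamb1* to *Lamc1* (0.644 and 0.107) lie far apart.

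*Itgb1*, the beta subunit shared by most collagen, laminin and fibronectin receptors, had the highest level of all integrins in both libraries. It had 2206 *tuft* and 2169 wild-type counts (fold change 2.96, limits 2.79 to 3.14). Its level per kilobase of exon was 84.0 CPM for *tuft* and 37.3 CPM for wild type. The alpha subunits that pair with it to bind laminin were within 2-fold. *Itga6* had 424 and 1254 (fold change 0.985, limits 0.880 to 1.10), and *Itga3* had 361 and 1103, 0.953 (0.844 to 1.07). Per kilobase of exon, *Itga6* stood at 0.261 of *Itgb1* in wild type and 0.0869 in *tuft*, and *Itga3* at 0.363 and 0.117. *Itga5*, the alpha subunit of the fibronectin receptor, had 420 and 1667 (fold change 0.734, limits 0.658 to 0.817). Its ratio to *Itgb1* per kilobase of exon was 0.716 (0.672 to 0.764) in wild type and 0.177 (0.159 to 0.197) in *tuft*.

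Of the other alpha subunits, 3 were called higher. *Itga4*, a receptor subunit for fibronectin and VCAM1, was counted 332 times in *tuft* against 221 in wild type (fold change 4.37, limits 3.68 to 5.21). *Itga8*, a receptor for nephronectin, had 159 and 152, a fold change of 3.05 (2.42 to 3.83), and *Itga10*, a receptor for collagen, 80 and 39, 5.97 (4.02 to 9.00). *Itga9*, the closest relative of *Itga4*, went the other way with 107 and 971 counts, 3.12 times lower (2.55 to 3.84). *Itgav*, which binds the RGD motif of fibronectin and vitronectin, had 101 and 302 counts and a fold change of 0.974 (0.770 to 1.22).

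The other beta subunits went both ways. *Itgb4*, which pairs with *Itga6* in the hemidesmosomes of epithelia, had 242 *tuft* and 60 wild-type counts and was 11.7-fold higher (8.82 to 15.9). It overlaps *Galk1*, which had 2401 and 2566 counts and was called higher too, so some of these reads could belong to that gene. *Itgb5* (450 and 962 counts) and *Itgb3* (48 and 120 counts), which pair with *Itgav*, had fold changes of 1.36 (1.22 to 1.53) and 1.16 (0.815 to 1.64), and that of *Itgb3* was under 1 with library totals alone. *Itgb8*, another partner of *Itgav*, had 85 wild-type counts but none in *tuft* (at least 9.73-fold lower, limit 7.74). Of the 13 integrins tested, 5 were called higher and 2 lower (38.5% and 15.4%, against 23.1% and 37.2% of all genes). Their median log2 fold change of 0.22 turned to -0.17 with library totals alone. The summed integrin counts were 767 CPM (*tuft*) and 645 CPM (wild type), 1.56-fold more on the TMM scale and 1.19-fold on library totals.

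Of the 75 genes, 52 reached 30 counts, and 16 of these (30.8%) were called higher and 17 (32.7%) lower. Higher calls made up 48.5% of the calls among members and 38.3% among all genes, and with library totals alone, where 14 members were higher and 23 lower, 37.8% and 27.9%. A gene that reached 30 counts in wild type alone had to differ, which was the case for 5 tested members with no count in *tuft*. The 23 genes not tested had at most 6 counts in *tuft* and 28 in wild type. They comprise 13 collagens, 3 laminins and 7 integrins, 19 of them had no count in *tuft*, and *Col6a6*, *Col19a1* and *Itgb6* had none in either library. A count of 0 leaves room for 3 counts, which is 0.466 CPM in *tuft* and 0.210 in wild type. Of the 15 members with 30 to 99 counts in wild type, 5 had none in *tuft*, compared with 44.8% of all 1963 genes in this range. Of these 15, 8 were called lower and 4 higher, and of all genes in this range 62.6% were lower and 24.3% higher. None of the 35 members with 100 counts or more in wild type had a count of 0 in *tuft*. Of all 6660 genes with 100 to below 1000 wild-type counts, 8.09% had none in *tuft*. In *tuft* 11795 symbols had a count, and in wild type 16914.

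Among the 18 members with at least 1000 counts in wild type, where counting error is smallest, 4 were called higher and 3 lower, and of all genes in that range 15.5% were higher and 27.4% lower. The members' transcripts are long, and 37 of the tested ones have at least 6000 bases of exon sequence. The median log2 fold change was -0.42 for all tested genes of that length and -0.22 for the members among them.

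Promoter windows were found for 55 of the 75 genes. The 40 windows of tested members had a median of 13 CpG dinucleotides in 300 bases, against 21 for the windows of all tested genes. Windows of members called higher had a median of 11, those of members called lower 9 and those of members with neither call 16. For all tested genes with the same calls the medians were 20, 20 and 22. A GC box stood in 8 of 13, 4 of 12 and 14 of 15 windows of these groups, and in 64.2%, 62.2% and 66.1% of the windows of all tested genes with the same calls. Several genes have more than 1 window, and members that share a start region share sequence.

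The other genes with which these proteins work were followed in lists. Of 16 tested partners in the basement membrane, 2 were called higher and 5 lower. *Hspg2* (perlecan; 2183 *tuft* and 5081 wild-type counts) and *Agrn* (agrin; 1854 and 7363), heparan sulfate proteoglycans that bind laminin, stayed within 2-fold, with fold changes of 1.25 and 0.733. *Pxdn* (1169 and 5923), which crosslinks type IV collagen, had a fold change of 0.575. The farthest higher gene was *Smoc1* (2077 and 805 counts, 7.51-fold). In the other direction *Tinagl1* had 5 and 228 counts (fold change 0.0639) and *Smoc2* had 122 wild-type counts but none in *tuft* (at least 13.97-fold lower, limit 11.2). *Nid2* was lower, with 136 and 2741 counts and a fold change of 0.144 (0.121 to 0.172). *Sparc*, which binds collagen, was higher (2972 and 2043 counts, 4.24-fold). *Fn1* (fibronectin), the ligand of the integrin of *Itga5* and *Itgb1*, had 1152 and 14442 (fold change 0.232, limits 0.219 to 0.247).

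Of 17 tested genes for folding and modifying collagen, 1 was called higher and 5 lower. The chaperone *Serpinh1* had 4746 *tuft* and 13028 wild-type counts (fold change 1.06, limits 1.03 to 1.10). The summed collagen counts were 2.18-fold higher on the TMM scale, on which the sum over all genes was 1.31-fold higher. A sum is led by its most counted genes, and the median log2 fold change of the collagens was 0.24. *Lepre1*, a prolyl 3-hydroxylase, was 5.06-fold higher (1396 and 804 counts) and *Leprel4*, its relative, had a fold change of 0.174 (27 and 452 counts). *P4hb*, a subunit of prolyl 4-hydroxylase, had 3119 and 14571 counts and a fold change of 0.623, and *Sec13*, a coat protein of secretory vesicles, 286 and 4152 counts and 0.201. Of 10 tested genes for processing and crosslinking procollagen, 3 were higher and 3 lower. The lower ones were the N-propeptide proteases *Adamts2* (0 and 59 counts), *Adamts3* (5 and 287) and *Adamts14* (0 and 73), and the higher ones *Pcolce2* (207 and 81), *Lox* (24 and 18) and *Loxl1* (43 and 47).

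Of 22 tested genes of the adhesion plaque, which couples integrins to actin, 6 were higher and 4 lower. *Tln1* (talin), which activates integrins by binding the beta subunit, was counted 7281 times in *tuft* against 5504 in wild type (fold change 3.85, limits 3.72 to 3.99), and *Zyx* had 2286 and 1195, 5.57 (5.19 to 5.98). *Flna* (filamin), the most counted gene of the list in wild type, had 3584 and 23977 counts, a fold change of 0.435. *Fermt2* (kindlin-2), which activates integrins together with talin, had 80 and 1579 (fold change 0.148, limits 0.116 to 0.185).

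**Figure D4:**
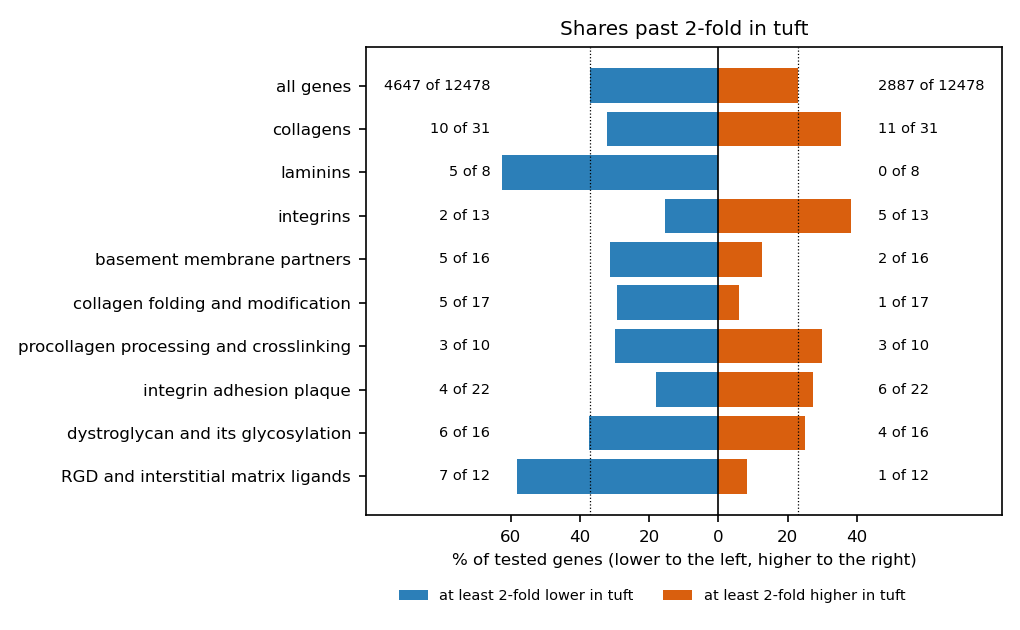
Share of tested genes called lower (blue, to the left) or higher (orange, to the right) in *tuft* in each family and list, in percent; numbers give the calls of the genes tested, and dotted lines the shares of all genes (37.2% and 23.1%). Laminins have 5 of 8 lower and 0 of 8 higher, while collagens have 10 and 11 of 31.

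Markers of cell types, some of the rostrum and some of other tissues, also differed between the libraries. Their part in the results above was not tested. The neuroepithelium list had 2 of 6 genes higher and none lower, and its summed level was 736 CPM (*tuft*) and 707 CPM (wild type). The surface ectoderm list had 1 of 6 higher and none lower (928 and 604 CPM), and the list of head mesenchyme and neural crest 3 of 7 higher and 2 lower (495 and 261 CPM), with *Prrx2* at 0 in *tuft* and 301 counts in wild type. The endothelium list had 4 of 6 lower and none higher (82.1 and 299 CPM), with *Pecam1* at 0 in *tuft* and 443 counts in wild type. *Lama4* and *Col15a1*, known from vessels, were lower as well. Genes found in basement membranes more widely went both ways. *Col4a1* and *Col18a1* had fold changes of 3.11 and 1.59, and *Col4a2*, *Lamc1* and *Nid2* had 0.647, 0.572 and 0.144. Whether any of these values is related to the endothelium was not tested. The list of yolk sac and visceral endoderm had 6 of 8 lower and 1 higher (277 and 2054 CPM), with *Apoa4* at 0 in *tuft* and 2856 counts in wild type. The blood list had 3 of 6 higher and 2 lower (35525 and 3197 CPM). The notochord list had 1 of 2 tested genes higher (107 and 34.2 CPM). Nearly all its counts were of *Shh* (557 *tuft* and 294 wild-type counts) and *Foxa2* (127 and 189). In that list *T* had 2 and 5 counts, and *Noto* had 0 in both libraries. The cartilage list had 1 of 2 higher and 1 lower (144 and 41.2 CPM). All its *tuft* counts were of *Sox9* (924 and 553), while *Acan* had 0 and 34 and *Matn1* 0 in both. Myeloid and platelet genes (0.466 and 8.63 CPM) and heart and muscle genes (0.311 and 3.09 CPM) were at or near 0 in *tuft*.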

How the data were processed

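The authors selected poly-A RNA, obtained single-end Ion Proton reads, which they cleaned with PRINSEQ, aligned them to mm10 with TopHat (version 2.0.14 per the labels, with Bowtie2 2.2.5) and deposited raw counts per gene symbol from htseq-count, whose version, overlap mode and strand setting are not given in the sources used here. The 5 summary lines of each file were left out. Alignments that were not unique made up 59.2% of the entries in *tuft* and 51.4% in wild type, so genes with close copies can lose counts. TMM factors were computed with edgeR 4.0.16 in R 4.3.3, and the effective size of the *tuft* library was 0.343 of the wild-type one. Fold changes, limits and levels were computed in Python 3.11.15 with scipy 1.17.1. The method of the paper, NOISeq-sim, rests on simulated libraries and was not used. Counts under 3 were set to 3 for calls and medians, while genes with 1 or 2 counts are printed with their own ratio. Lengths are union exons of GENCODE M1 (NCBIM37), found for all 75 genes, and positions are from GRCm38.p6. The code was run on simulated counts with counting error alone, scaled by library totals. That run tests neither TMM nor the state of the 2 libraries. Named genes are members with at least 100 counts in a library, partner chains, the highest levels of each family and, in the other lists, the most counted genes and the farthest fold changes; further genes named were chosen after their values were seen. The values of 1 member are not reported here, although it is part of the counts and medians. The members and lists were chosen with earlier results of these data known. The alternatives were library totals, the upper quartile and DESeq2 size factors (1.42.0) as the scale, other minima, folds and values for counts of 0, and the longest coding transcript as the length.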

Additional observations from a re-analysis of the deposited data

How the results depend on the processing

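Library totals alone shifted every log2 fold change by -0.39 against TMM, and moved the medians to -0.54 for all members, -0.15 for collagens, -2.66 for laminins and -0.17 for integrins. Relative to all genes tested, the medians stood at 0.55 for collagens, -1.96 for laminins and 0.53 for integrins, whichever scale was used. No called member changed direction under any of the alternatives run. The median of laminins was -2.78 with 0.5 in place of counts of 0 and -1.68 without a minimum count, where 5 integrins were lower. With a minimum of 100 counts, 8 members were lower, comprising 4 collagens, 3 laminins and 1 integrin, and the medians were 0.34 for all members and 1.01 for collagens. At 4-fold, 9 members were higher, comprising 6 collagens and 3 integrins, 14 were lower, comprising 9 collagens, 4 laminins and 1 integrin, and 1218 and 3017 of all genes were higher and lower. With the longest coding transcript as the length, the ratio of *Lamb1* to *Lamc1* was 1.02 in wild type and 0.170 in *tuft*, and that of *Col1a1* to *Col1a2* 0.417 and 0.117. Length cancels in the comparison of a ratio between libraries. With that length *Col3a1* (149 CPM per kilobase) stood just above *Col4a1* (148) in *tuft*, and *Itga6* stood above *Itga3* in both libraries. No paired analysis was possible because each genotype has 1 column of counts. With 1 column for each genotype, leaving out a replicate was not possible, the spread between embryos is not known, and differences in members under 100 counts rest on little depth.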

Other observations

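Receptors and ligands outside the 3 families gave a mixed picture. Of 16 tested genes for laminin receptors other than integrins (dystroglycan and *Bcam*), for the dystrophin, utrophin and sarcoglycan proteins bound to dystroglycan and for the enzymes that add its sugar chains, 4 were called higher and 6 lower. *Dag1* itself had 1272 *tuft* and 5530 wild-type counts (fold change 0.670, limits 0.630 to 0.712). *Bcam*, a receptor for the laminin alpha5 chain, had 17245 and 2714 counts, 18.5-fold higher (17.8 to 19.3), while *Lama5* itself had 662 and 2252. *Sgcb*, a sarcoglycan, had 1 and 175 counts.

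Of 12 tested genes of the interstitial matrix and of ligands with an RGD motif, 1 was higher and 7 were lower, including *Fn1*, which the list shares with the basement membrane partners. *Thbs1* (thrombospondin) had 1102 *tuft* and 626 wild-type counts and was 5.13-fold higher (4.64 to 5.66). *Fbn1* (fibrillin) had none and 784, at least 89.7-fold lower with 3 counts in place of 0 (limit 72.8), whereas its paralog *Fbn2* had 1131 and 3658, a fold change of 0.900 (0.842 to 0.963). *Vtn* (vitronectin) and *Tnc* (tenascin) had no count in *tuft* and 76 and 194 in wild type.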
